A study of Rattus norvegicus with 32 samples.

Results

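The 4 tropomyosin genes and 6 genes of the smooth-muscle contractile programme were described in primary liver sinusoidal endothelial cells (LSECs), the fenestrated cells that line the blood channels of the liver. The 10 genes were chosen by symbol (Tpm1, Tpm2, Tpm3, Tpm4, Acta2, Tagln, Tagln2, Myl9, Cnn1 and Cald1), and all 10 were found once each among the 32623 genes counted. Tropomyosins lie along actin filaments as coiled-coil dimers and decide which myosins and other proteins can bind there. Alpha-smooth muscle actin (Acta2), transgelin (Tagln), calponin 1 (Cnn1), caldesmon (Cald1) and the regulatory myosin light chain Myl9 build or regulate contractile filaments in smooth muscle cells and in myofibroblasts. In the injured liver, Acta2 is best known as a marker of activated hepatic stellate cells, the pericytes that lie beside LSECs in the sinusoid, while Tpm3, Tpm4 and Tagln2 are also used in the cytoskeleton of non-muscle cells.

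RNA was sequenced in 32 libraries of LSECs from male rats without a genetic change. In the CCl4 model, Wistar Han rats inhaled carbon tetrachloride, with phenobarbital in the drinking water, for 2 weeks (acute injury, 5 libraries), 6 weeks (fibrosis, 5 libraries) or 12 to 14 weeks (cirrhosis, 6 libraries), and 6 libraries came from untreated healthy rats. The labels of the cirrhotic libraries name the toxicant but no duration, which was taken from the description of the study. The thioacetamide (TAA) experiment held 5 libraries labelled control (T1 to T5) and 5 labelled TAA control (T10, T12, T13, T14 and T15). The labels give Wistar Han for these rats as well, whereas the design text names Sprague-Dawley, and it is not settled which of both groups received TAA, so their difference is given by label only. In all groups LSECs were obtained with an iodixanol density gradient, and in treated rats several days after the last dose.

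Library totals lay between 25646531 and 46464289 expected counts, and levels are given as CPM (counts as a share of the library total, scaled with TMM factors). The healthy libraries had factors of 0.712 to 0.939 against 0.9747 to 1.18 in the other groups. Scaling by library size alone raised the log2 fold-changes against healthy, by a median over all genes of 0.41 at 2 weeks, 0.40 at 6 weeks and 0.34 in cirrhosis. The 7 LSEC markers found in the files were detected in every library. Their summed level was 3304 to 3952 CPM at 2 weeks and 2284 to 3173 CPM at 6 weeks. This lay below the 12103 to 23902 CPM of healthy and the 12954 to 16665 CPM of cirrhotic libraries. Against healthy, 5 of the 7 were called lower at 2 weeks and 6 at 6 weeks, beside 38.3% and 35.4% of all genes tested. Not all fell alike: the endothelial cadherin gene Cdh5 had means of 1293 CPM in healthy, 1597 CPM in 2-week and 1040 CPM in 6-week libraries. A separate list of 4 vascular endothelial markers summed to 1438 to 4440 CPM in healthy and 1789 to 4097 CPM in cirrhotic libraries. At 2 and 6 weeks that sum was 27.4 to 51.2 CPM and 39.3 to 74.7 CPM, and all 4 were called lower than in healthy at both. The 6 immediate-early genes examined, which respond to tissue digestion, summed to 753 to 1990 CPM at 2 weeks and 1632 to 2565 CPM at 6 weeks, against 23284 to 47955 CPM in healthy LSECs and 14416 to 30977 CPM in cirrhosis. No preparation batch is named in the sources used here, so a batch shared by the 2- and 6-week libraries cannot be told apart from the stage. Libraries T14 and T15 resembled each other more than any other pair of a group (chi-square per degree of freedom 2.96 against at least 23.6) but differed by more than sampling noise, and both were kept.

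Promoter windows of 3 members are shown because their genes took different courses in the CCl4 model: Acta2, at its highest mean at 6 weeks, Tpm1, lowest at 2 weeks, and Tpm4, highest at 2 weeks. RefSeq entries (build GRCr8) were matched for 8 of the 10 members, in 11 windows that run from 250 bases before to 50 bases after an annotated start. Capitals mark matches to the serum response factor motif called the CArG box with 1 core base allowed to be C or G, or to the TEAD motif called MCAT (CATTCC on either strand, read as GGAATG on the other). All windows are written 5′ to 3′ on the strand of the gene.
Acta2: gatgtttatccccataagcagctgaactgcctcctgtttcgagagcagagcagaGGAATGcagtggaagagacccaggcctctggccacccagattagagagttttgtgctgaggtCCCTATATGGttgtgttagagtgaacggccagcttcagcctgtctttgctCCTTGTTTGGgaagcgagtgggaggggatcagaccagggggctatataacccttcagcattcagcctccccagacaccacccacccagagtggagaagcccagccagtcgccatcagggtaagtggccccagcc
Tpm1: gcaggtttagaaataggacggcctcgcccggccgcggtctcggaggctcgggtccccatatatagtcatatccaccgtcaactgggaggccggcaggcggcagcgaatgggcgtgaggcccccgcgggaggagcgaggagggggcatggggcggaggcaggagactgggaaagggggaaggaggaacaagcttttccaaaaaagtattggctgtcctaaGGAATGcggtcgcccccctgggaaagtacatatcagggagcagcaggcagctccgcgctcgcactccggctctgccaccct
Tpm4: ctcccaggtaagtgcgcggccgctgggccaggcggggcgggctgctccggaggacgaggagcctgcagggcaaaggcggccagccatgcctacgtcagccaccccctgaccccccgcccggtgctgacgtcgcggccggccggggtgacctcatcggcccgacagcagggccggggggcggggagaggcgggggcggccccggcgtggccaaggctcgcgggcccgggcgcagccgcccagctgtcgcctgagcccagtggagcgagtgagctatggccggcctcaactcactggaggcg
The Acta2 window on chr1:241172454-241172753 (minus strand) held 2 CArG-like matches, 134 to 125 and 84 to 75 bases before the start, and 1 MCAT match 196 to 191 bases before it. The Tpm1 window on chr8:76543366-76543665 (minus strand) held 1 MCAT match 31 to 26 bases before the start, and the Tpm4 window on chr16:17732434-17732733 (minus strand) held no match to either. Strict CArG boxes occurred in 1.64% of the 33469 promoter windows in the table and in none of the 11 windows of the members. CArG-like matches occurred in 9.42% of all windows and in 3 windows of 2 members (Acta2 and Tpm3), and MCAT matches in 14.2% of all windows and in 4 windows of 4 members (Tpm1, Acta2, Tagln2 and Cald1). A match describes the letters of the window and not a bound site, and the counts per gene do not separate transcripts that begin at different starts.

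The 4 tropomyosins each followed a different course in the CCl4 model. Tpm4 rose and Tpm2 fell at all 3 stages relative to healthy LSECs, Tpm3 fell at 2 and 6 weeks, and Tpm1 fell at 2 weeks and rose at 6 weeks and in cirrhosis. Genes were called at p under 0.05 and a fold-change above 1.5 in limma-voom, and adjusted p-values are Benjamini-Hochberg values over all genes tested. The 3 comparisons with healthy LSECs share the same 6 healthy libraries. In RNA from bulk preparations, fewer cells of a type and less RNA per cell cannot be told apart.

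Tpm1 (ENSRNOG00000018184), which encodes a tropomyosin with both muscle and non-muscle isoforms, was 16.3 to 27.1 CPM (median 22.8, n = 6) in healthy LSECs. It measured 11.03, 9.29, 11.1, 21.8 and 10.5 CPM at 2 weeks and 35.9, 46.8, 28.4, 57.1 and 25.3 CPM at 6 weeks. In cirrhosis it lay within a narrow band, 31.95 to 37.5 CPM (median 33.4, n = 6). Replicate 4 at 2 weeks and replicate 17 at 6 weeks lay inside the healthy range, the other 4 libraries of each of these groups lay below and above it, respectively, and 6 of 6 cirrhotic libraries lay above it. Relative to healthy, Tpm1 was 1.77-fold lower at 2 weeks (log2 fold-change -0.82 ± 0.23 SE, adjusted p = 0.00597), 1.75-fold higher at 6 weeks (log2 fold-change 0.81 ± 0.23 SE, adjusted p = 0.00663) and 1.56-fold higher in cirrhosis (log2 fold-change 0.65 ± 0.14 SE, adjusted p = 0.00205). Its fall at 2 weeks was not called with library size alone (log2 fold-change -0.41, adjusted p = 0.176), and its rise in cirrhosis dropped under the fold limit without healthy replicate 1 (log2 fold-change 0.56, adjusted p = 0.00467). From 2 to 6 weeks it rose 3.17-fold (log2 fold-change 1.66 ± 0.29 SE, adjusted p = 0.00627), with no overlap between the groups. In the order of levels, 6 weeks stood before cirrhosis, healthy and 2 weeks, and the first of these steps did not pass the test (cirrhosis minus 6 weeks, log2 fold-change -0.11, 95% interval -0.51 to 0.28).

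Tpm2 (ENSRNOG00000016731), the beta-tropomyosin of muscle, was 19.98 to 42.7 CPM (median 30.3, n = 6) in healthy LSECs. It measured 1.63, 1.72, 1.83, 1.15 and 4.74 CPM at 2 weeks, 3.59, 6.08, 4.59, 3.93 and 2.54 CPM at 6 weeks, and 12.2 to 21.02 CPM (median 13.8, n = 6) in cirrhosis. Every library of the 2- and 6-week groups lay below every healthy and every cirrhotic one, while the healthy and cirrhotic ranges overlapped between 19.98 and 21.0 CPM. Against healthy it was 14.5-fold lower at 2 weeks (log2 fold-change -3.85 ± 0.34 SE, adjusted p = 7.47e-07), 6.83-fold lower at 6 weeks (log2 fold-change -2.77 ± 0.27 SE, adjusted p = 1.96e-06) and 1.91-fold lower in cirrhosis (log2 fold-change -0.93 ± 0.21 SE, adjusted p = 0.00301). The order was healthy, cirrhosis, 6 weeks and 2 weeks, and each step passed the test, the last with a log2 difference of 1.13 ± 0.35 (SE, adjusted p = 0.0424).

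Tpm3 (ENSRNOG00000017441), a mainly cytoskeletal tropomyosin, was 713 to 1469.7 CPM (median 881, n = 6) in healthy and 833 to 1151 CPM (median 992, n = 6) in cirrhotic LSECs. It measured 494, 506, 453, 466 and 449.9 CPM at 2 weeks and 368, 406, 434, 383 and 367 CPM at 6 weeks, so that all 10 of these libraries lay below the lowest healthy one. Tpm3 was 1.96-fold lower at 2 weeks (log2 fold-change -0.97 ± 0.17 SE, adjusted p = 0.000237) and 2.32-fold lower at 6 weeks (log2 fold-change -1.21 ± 0.17 SE, adjusted p = 4.31e-05). Cirrhotic and healthy LSECs differed by a log2 fold-change of 0.05 (95% interval -0.33 to 0.44). The 6-week values lay under the 2-week values without overlap, by a factor of 1.14, which is below the fold limit (adjusted p = 0.0529). With library size alone the fall at 2 weeks was -0.56 on the log2 scale and also under that limit.

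Tpm4 (ENSRNOG00000015496), a non-muscle tropomyosin, moved opposite to Tpm2 and Tpm3 at 2 and 6 weeks. Its level was 91.8 to 166 CPM (median 121, n = 6) in healthy LSECs and 226 to 326 CPM (median 249, n = 6) in cirrhosis. At 2 weeks it measured 929, 906, 1063, 869 and 1195 CPM, and at 6 weeks 852, 914, 697, 733 and 692 CPM. No library of any treated group reached down into the healthy range. Tpm4 rose 8.22-fold at 2 weeks (log2 fold-change 3.04 ± 0.19 SE, adjusted p = 4.94e-08), 6.59-fold at 6 weeks (log2 fold-change 2.72 ± 0.19 SE, adjusted p = 1.14e-07) and 2.08-fold in cirrhosis (log2 fold-change 1.06 ± 0.18 SE, adjusted p = 0.000402). Cirrhotic levels were 3.04-fold lower than 6-week levels (log2 fold-change -1.61 ± 0.11 SE, adjusted p = 7.46e-08), and the 2- and 6-week groups were not called different (log2 fold-change -0.27, 95% interval -0.52 to -0.03). Platelets are rich in Tpm4, and the 4 platelet markers summed to 4.41 to 8.56 CPM at 2 weeks and 5.28 to 11.3 CPM at 6 weeks, below the 12.3 to 47.2 CPM of the healthy libraries. Of the 3 platelet markers tested, 1 was called higher and 2 lower at 2 weeks, beside 35.8% and 38.3% of all genes. At 6 weeks 1 was called higher and 1 lower, beside 35.8% and 35.4%. Itga2b was lower (log2 fold-change -3.86 at 2 weeks and -2.76 at 6 weeks, adjusted p = 9.65e-06 and 4.02e-05) and Pf4 higher (2.64 and 2.24, adjusted p = 0.000752 and 0.00335), both named after their values were seen. The part of platelets in the level of Tpm4 was not tested.

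**Figure D1:**
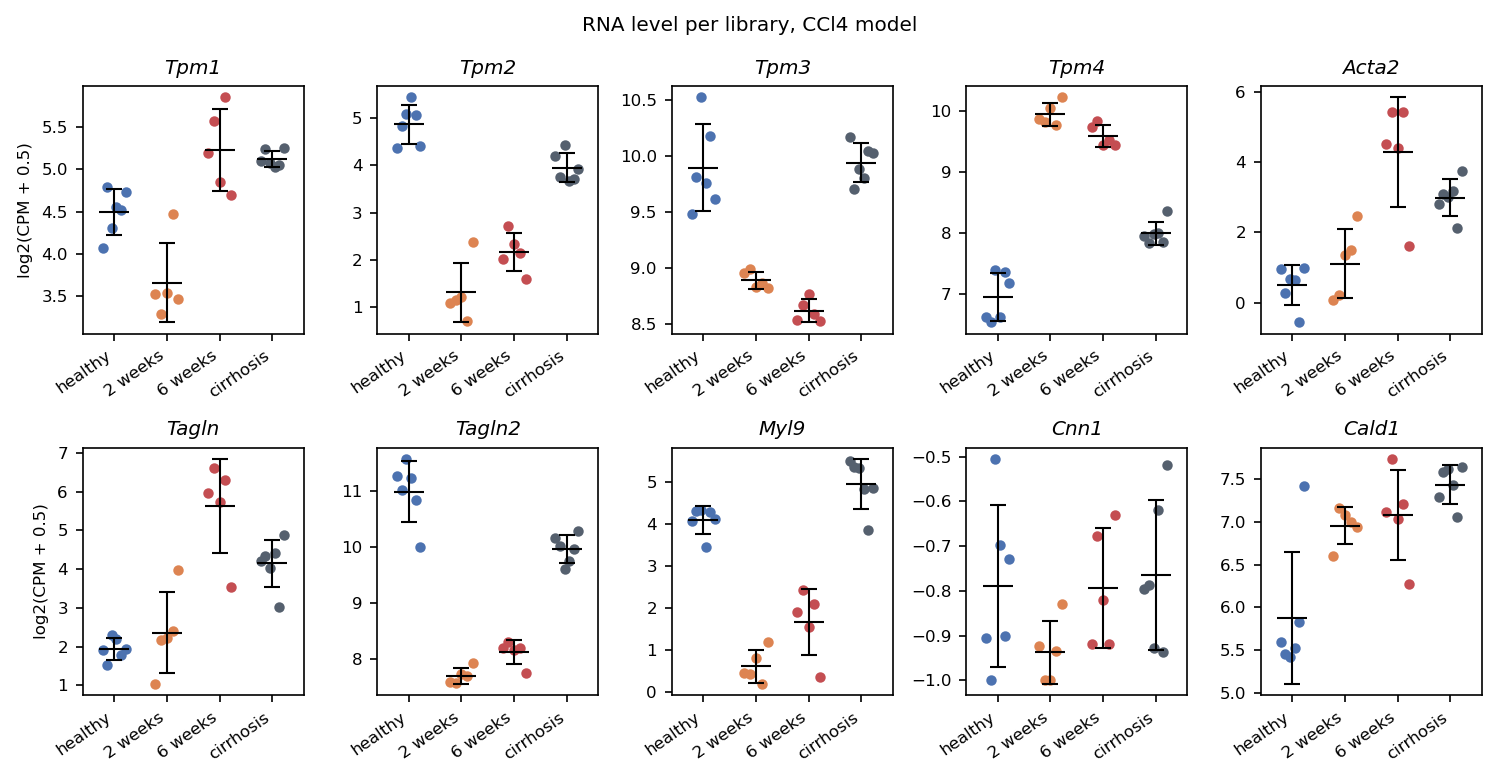
Level of each of the 10 genes in the 22 libraries of the CCl4 model, as log2 of CPM plus 0.5 on the y axis of each panel (each with its own scale), by group on the x axis (6 libraries for healthy and cirrhosis, 5 for 2 and 6 weeks), with points for libraries and lines for the mean ± SD. Tpm4 sits at 692 to 1195 CPM at 2 and 6 weeks against 91.8 to 166 CPM in healthy LSECs, and Acta2 and Tagln stand out at 6 weeks in 4 of 5 libraries.

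Among the contractile genes, Acta2 and Tagln rose steeply at 6 weeks and in cirrhosis, Tagln2 fell at all 3 stages, Myl9 fell at 2 and 6 weeks and rose in cirrhosis, and Cald1 rose at all 3. Acta2 and Tagln were the pair of members with the most similar profile over the 22 libraries (root mean square difference of centred log2 CPM 0.388), followed by Tpm2 and Tagln2 (0.432). The pairs with Cnn1, which had at most 8 counts in any library, were left out of this order.

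Acta2 (ENSRNOG00000058039), alpha-smooth muscle actin, was near the limit of detection in healthy LSECs, 0.179 to 1.498 CPM (median 1.08, n = 6). It measured 0.544, 0.654, 2.06, 2.303 and 4.99 CPM at 2 weeks and 22.5, 42.6, 20.4, 42.3 and 2.57 CPM at 6 weeks. In cirrhosis it was 3.84 to 12.8 CPM (median 7.73, n = 6), above all healthy libraries. In the 6-week group 4 of the 5 libraries were above every cirrhotic one, and replicate 17 was below all of them. Against healthy, Acta2 rose 22.5-fold at 6 weeks (log2 fold-change 4.49 ± 0.96 SE, adjusted p = 0.00111) and 8.65-fold in cirrhosis (log2 fold-change 3.11 ± 0.46 SE, adjusted p = 0.00021). At 2 weeks the libraries overlapped with the healthy range and the difference did not pass the test (log2 fold-change 0.87, 95% interval -0.59 to 2.32). Cirrhosis and 6 weeks were not called different (log2 fold-change -1.32, 95% interval -2.82 to 0.18). Without replicate 17 the 6-week rise was 5.21 on the log2 scale (adjusted p = 5.13e-06) and the step to cirrhosis became a called fall of -2.04 (adjusted p = 0.000128). The step from 2 to 6 weeks was 3.66 ± 1.20 (SE) on the log2 scale, called at the unadjusted p-value but not at the adjusted one (0.0526), and it was 4.39 (adjusted p = 0.00459) without replicate 17.

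Tagln (ENSRNOG00000017628), the calponin-family protein transgelin, followed the same order. It was 2.36 to 4.38 CPM (median 3.29, n = 6) in healthy LSECs and 7.69 to 28.9 CPM (median 18.8, n = 6) in cirrhosis. The 2-week libraries measured 1.55, 4.03, 4.17, 4.74 and 15.2 CPM, and the 6-week libraries 62.5, 98.05, 53.03, 78.4 and 11.2 CPM. Replicate 17 was again the lowest of its group, and replicate 8 the highest at 2 weeks. Tagln rose 15.4-fold at 6 weeks (log2 fold-change 3.95 ± 0.58 SE, adjusted p = 6.65e-05) and 5.21-fold in cirrhosis (log2 fold-change 2.38 ± 0.32 SE, adjusted p = 0.000151), without overlap with healthy in either. The 2-week difference was 0.45 on the log2 scale (95% interval -0.56 to 1.46). From 2 to 6 weeks it rose 11.6-fold (log2 fold-change 3.54 ± 0.88 SE, adjusted p = 0.0197), and from 6 weeks to cirrhosis it fell 2.86-fold (log2 fold-change -1.51 ± 0.52 SE, adjusted p = 0.0186). Without replicate 17 the difference of Tagln at 6 weeks was 4.49 from healthy (adjusted p = 9.49e-08), 4.08 from 2 weeks (adjusted p = 0.00274) and -2.05 in cirrhosis against 6 weeks (adjusted p = 8.9e-05) on the log2 scale. Its expected counts were not whole numbers in 32 of 32 libraries, as RSEM gives where reads are shared between loci. How many reads were shared, and how uncertain this makes its level, was not measured.

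The course of Acta2 and Tagln was set beside the markers of hepatic stellate cells. Of the 13 such markers in the files, Reln behaved unlike the rest, at a mean of 167 CPM in healthy LSECs, 1678 CPM at 2 weeks, 1377 CPM at 6 weeks and 208 CPM in cirrhosis. The other 12 summed to 273 to 901 CPM in healthy LSECs, 28.4 to 47.1 CPM at 2 weeks, 58.4 to 156 CPM at 6 weeks and 852 to 2162 CPM in cirrhosis. The 5 libraries at 6 weeks thus held lower sums of these 12 markers than any healthy library. Acta2 and Tagln stood above every healthy library there, and in cirrhosis the sums and both genes were higher. Col3a1 and Hgf had the highest healthy means of the 12, 223 and 103 CPM, against 22.8 and 16.3 CPM at 6 weeks. Col1a1 went from 10.1 to 47.5 CPM and Pdgfrb from 7.24 to 8.05 CPM, so the sum does not stand for every marker. Calls by gene, most of them lower at 6 weeks, are given below. Reln was left out after its values had been seen. With Reln the sums were 404 to 1082 CPM in healthy, 1341 to 2151 CPM at 2 weeks, 1301 to 1726 CPM at 6 weeks and 990 to 2387 CPM in cirrhotic LSECs. Within the 6-week group, replicate 17 had the lowest sum without Reln (58.4 CPM).

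By gene, 3 of the 12 stellate markers tested were called higher and 6 lower at 6 weeks than in healthy LSECs. The higher ones were Reln, Dcn (log2 fold-change 1.16, adjusted p = 0.0605) and the type I collagen gene Col1a1 (2.28, adjusted p = 0.000707), while the type III collagen gene Col3a1 was lower (-3.18, adjusted p = 2.32e-05) and the retinoid-storage enzyme gene Lrat too (-2.48, adjusted p = 0.00741). In cirrhosis 10 of 13 were called higher, 9 of them also at the adjusted p, among them the PDGF receptor gene Pdgfrb (2.48, adjusted p = 0.000181) and Lrat (1.81, adjusted p = 0.0141). At 2 weeks 1 of 12 was higher, Reln, and 10 were lower. Over all genes tested, 35.8% were called higher and 38.3% lower at 2 weeks, 35.8% and 35.4% at 6 weeks, and 28.8% and 25.7% in cirrhosis. Lum had no read in 1 healthy and 1 library of the 2-week group, and the other stellate markers were detected in all 22 libraries. Markers of portal fibroblasts and mesothelial cells summed to 212 to 510 CPM in healthy LSECs, 1.80 to 3.28 CPM at 2 weeks, 4.75 to 10.6 CPM at 6 weeks and 251 to 670 CPM in cirrhosis. The part of these cells in the levels of the members was not tested beyond these values.

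**Figure D2:**
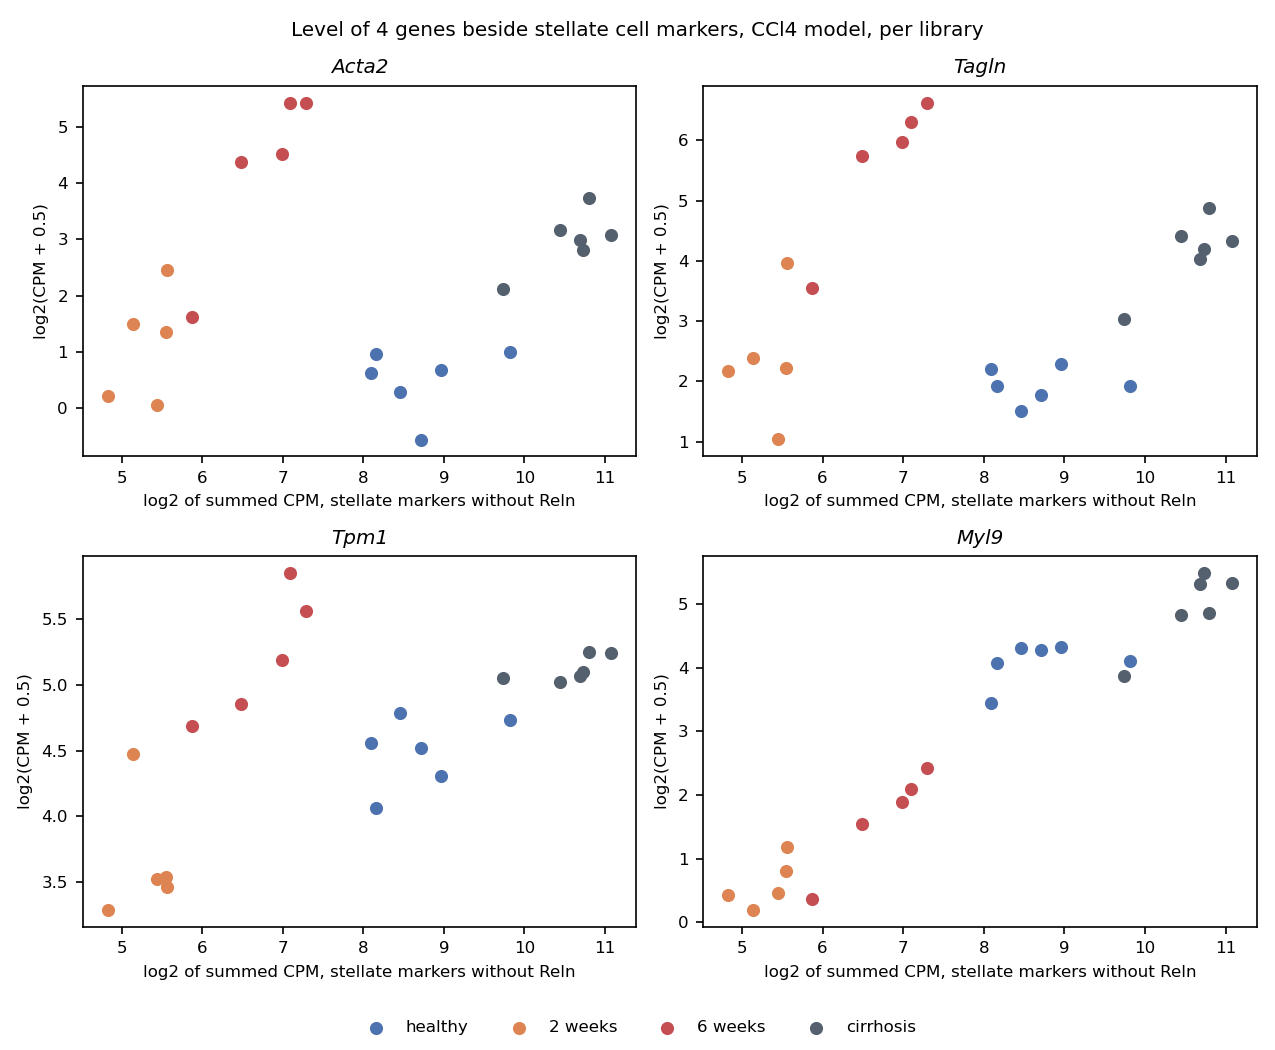
Level of Acta2, Tagln, Tpm1 and Myl9 (y axis, log2 of CPM plus 0.5) against the summed level of 12 stellate cell markers without Reln (x axis, log2 of CPM) in the 22 libraries of the CCl4 model, 1 point per library coloured by group. The 6-week libraries (58.4 to 156 CPM of markers) lie to the left of all healthy ones (273 to 901 CPM), with 4 of 5 at the top of the Acta2 and Tagln panels and all 5 low in the Myl9 panel.

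The 6 markers of vascular smooth muscle summed to 603 to 1242 CPM in healthy LSECs, 24.3 to 93.7 CPM at 2 weeks, 47.6 to 90.8 CPM at 6 weeks and 230.3 to 402 CPM in cirrhosis, most of it from Smtn. Without Smtn, the other 5 summed to 3.51 to 7.80 CPM in healthy LSECs, 1.96 to 3.97 CPM at 2 weeks, 3.12 to 7.63 CPM at 6 weeks and 10.2 to 21.4 CPM in cirrhosis, and Kcnmb1, a channel subunit of smooth muscle, had no read in any healthy, 2-week or 6-week library. Smtn, which encodes smoothelin, was left out after its values had been seen, since it was at a mean of 966 CPM in healthy LSECs, 45.0 CPM at 2 weeks, 67.5 CPM at 6 weeks and 282 CPM in cirrhosis. Calponin 1 (Cnn1, ENSRNOG00000027736), a marker of differentiated smooth muscle, had between 0 and 8 counts per library, with 0 in 4 of the 32, and passed the low-count filter in no comparison. Its range was 0 to 0.205 CPM in healthy, 0 to 0.0631 CPM in 2-week, 0.0287 to 0.146 CPM in 6-week and 0.0222 to 0.198 CPM in cirrhotic LSECs. Without the low-count filter, limma-voom called Cnn1 in 3 of the 7 comparisons at the unadjusted p-value, higher at 6 weeks and in cirrhosis than at 2 weeks (adjusted p = 0.113 and 0.0335) and lower in the TAA control libraries than in the control libraries of the TAA experiment (adjusted p = 0.118). No fold-change is given, since these calls rest on at most 8 counts per library.

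Myl9 (ENSRNOG00000020246), the regulatory light chain of smooth-muscle myosin, was 10.4 to 19.6 CPM (median 17.8, n = 6) in healthy LSECs. It measured 0.871, 0.844, 1.25, 0.645 and 1.77 CPM at 2 weeks and 3.21, 4.87, 2.43, 3.76 and 0.787 CPM at 6 weeks, all below the lowest healthy value. In cirrhosis it was 14.05 to 44.3 CPM (median 33.9, n = 6), with 1 library inside the healthy range. Myl9 was 16.1-fold lower at 2 weeks (log2 fold-change -4.00 ± 0.30 SE, adjusted p = 2.07e-07), 6.12-fold lower at 6 weeks (log2 fold-change -2.61 ± 0.38 SE, adjusted p = 5.29e-05) and 1.85-fold higher in cirrhosis (log2 fold-change 0.88 ± 0.27 SE, adjusted p = 0.0148). The last of these was not called when libraries were weighted by quality (log2 fold-change 0.88, adjusted p = 0.0746). The 6-week fall thus went against the 6-week rise of Acta2 and Tagln, and cirrhotic levels were 11.7-fold above those at 6 weeks (log2 fold-change 3.55 ± 0.53 SE, adjusted p = 5.48e-05). From 2 to 6 weeks Myl9 was 2.72-fold higher, called at the unadjusted p-value only (adjusted p = 0.0693).

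Tagln2 (ENSRNOG00000008301), the transgelin of non-muscle cells and leukocytes, was 1021 to 3069.7 CPM (median 2241, n = 6) in healthy LSECs and 784 to 1249 CPM (median 1021, n = 6) in cirrhosis. It measured 191, 188, 211, 206 and 241 CPM at 2 weeks and 293, 313, 287, 293 and 215 CPM at 6 weeks, far below both. The fall was 9.66-fold at 2 weeks (log2 fold-change -3.27 ± 0.23 SE, adjusted p = 1.27e-07), 7.01-fold at 6 weeks (log2 fold-change -2.81 ± 0.24 SE, adjusted p = 6.86e-07) and 2.03-fold in cirrhosis (log2 fold-change -1.02 ± 0.24 SE, adjusted p = 0.0035). The difference between 2 and 6 weeks was 0.51 on the log2 scale (adjusted p = 0.0115), under the fold limit, and 0.60 (adjusted p = 0.00461), above it, without replicate 17. Markers of Kupffer cells summed to 210 to 2025 CPM in healthy LSECs, 43.6 to 153 CPM at 2 weeks, 15.8 to 106 CPM at 6 weeks and 510 to 1900 CPM in cirrhosis, and those of lymphocytes to 14.4 to 214 CPM, 0.276 to 2.67 CPM, 1.80 to 18.0 CPM and 13.1 to 27.6 CPM, respectively. Both sums were lower at 2 weeks than in healthy LSECs, as was Tagln2, and their part in its fall was not tested.

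Cald1 (ENSRNOG00000010233), which encodes the actin- and myosin-binding protein caldesmon, was 42.4 to 171 CPM (median 46.7, n = 6) in healthy LSECs. Replicate 6 alone reached 171 CPM, and the other 5 healthy libraries lay between 42.4 and 56.3 CPM. At 2 weeks it measured 96.3, 143, 135, 128 and 122 CPM, at 6 weeks 139, 213, 131, 148 and 76.8 CPM, and in cirrhosis 133 to 199 CPM (median 182, n = 6). Cald1 rose 2.17-fold at 2 weeks (log2 fold-change 1.11 ± 0.33 SE, adjusted p = 0.00791), 2.41-fold at 6 weeks (log2 fold-change 1.27 ± 0.37 SE, adjusted p = 0.00804) and 2.98-fold in cirrhosis (log2 fold-change 1.57 ± 0.29 SE, adjusted p = 0.000819). Without healthy replicate 6, which also had the highest stellate marker sum of its group (901 CPM), these rises were 1.53, 1.53 and 1.88 on the log2 scale. The treated groups did not differ among themselves by the call rule, the largest difference being 0.49 between cirrhosis and 2 weeks (adjusted p = 0.00424, fold-change 1.400).

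In each comparison 9 of the 10 members could be tested. Against healthy LSECs, 7 were called at 2 weeks, 2 higher and 5 lower, where 74.1% of all genes tested were called (35.8% higher and 38.3% lower). Of these members 5 did not overlap between the groups, against 60% of all genes. At 6 weeks 9 were called, 5 higher and 4 lower, beside 71.2% of all genes (35.8% higher and 35.4% lower), and 7 did not overlap (58.7% of all genes). In cirrhosis 8 were called, 6 higher and 2 lower, beside 54.5% of all genes (28.8% higher and 25.7% lower), and 4 did not overlap (27.2%). With library size alone, the genes called were 6200 higher and 4491 lower at 2 weeks (5128 and 5483 with TMM), 6311 and 4085 at 6 weeks (5206 and 5145) and 5921 and 2393 in cirrhosis (4256 and 3802). Being called was thus the usual state of a gene in these 3 comparisons. The median absolute log2 fold-change of the tested members was 1.11 at 2 weeks, 2.72 at 6 weeks and 1.02 in cirrhosis, beside 1.42, 1.30 and 0.78 for all genes tested.

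Between 2 and 6 weeks, where 15.7% of all genes were called (14.3% higher and 1.39% lower at 6 weeks), 5 members were called and all 5 were higher at 6 weeks (Tpm1, Tpm2, Acta2, Tagln and Myl9). With the adjusted p-value these were 3 (Tpm1, Tpm2 and Tagln), beside 11% of all genes. The members that did not overlap between these groups were 2, Tpm1 and Tpm3 (17.2% of all genes). The median absolute log2 fold-change of the members was 1.13, beside 0.22 for all genes. From 6 weeks to cirrhosis 6 were called, 4 higher and 2 lower, beside 64.2% of all genes (34.5% higher and 29.7% lower), and 5 did not overlap (63.3%). From 2 weeks to cirrhosis 8 were called, 7 higher and 1 lower, beside 69.7% of all genes (37.8% higher and 31.9% lower), and 6 did not overlap (65.9%). Tpm2, Tpm3, Tagln2 and Myl9 were higher and Tpm4 lower in cirrhosis than at either earlier stage.

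**Figure D3:**
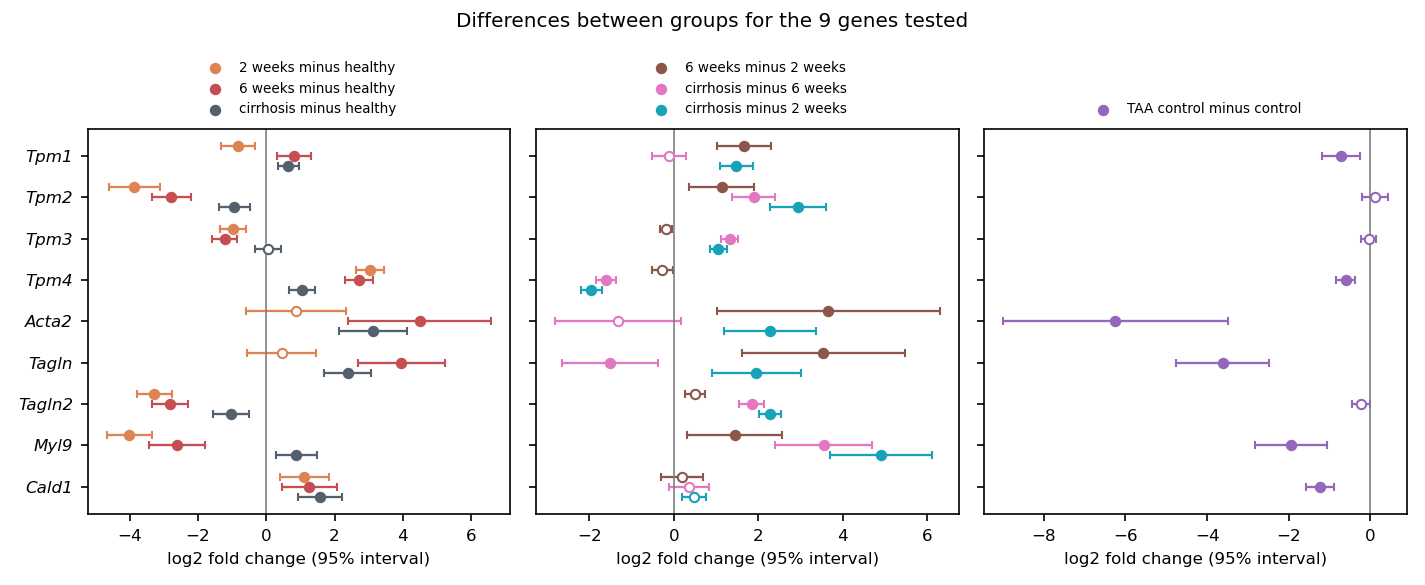
Log2 fold-change with its 95% interval (x axis) of the 9 genes tested (y axis), for the 3 stages against healthy (left), between stages (middle) and in the TAA experiment (right), where filled points passed p under 0.05 and a fold-change above 1.5 in limma-voom and open points did not. The 5 filled points for 6 weeks minus 2 weeks all lie above 0, and Tpm4 is the gene with the largest rise at 2 weeks (log2 fold-change 3.04).

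In the TAA experiment, 6 of the 9 members tested were called and all 6 were lower in the libraries labelled TAA control than in those labelled control, where 29.4% of all genes were called (13.5% higher and 15.9% lower). These were Tpm1, Tpm4, Acta2, Tagln, Myl9 and Cald1, and the same 6 did not overlap between the groups (35.4% of all genes). The levels below were scaled over the 10 libraries of this experiment and are not comparable with those of the CCl4 model.

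Acta2 was 25.5, 89.1, 21.98, 15.8 and 19.4 CPM in the libraries labelled control and 0.917, 0.434, 0.329, 0.07898 and 0.359 CPM in those labelled TAA control. The fitted difference was -6.25 ± 1.25 (SE) on the log2 scale (95% interval -8.99 to -3.50, adjusted p = 0.00201), with as few as 2 counts in a library of the lower group. Tagln was 39.7, 105, 40.7, 27.03 and 29.04 CPM against 3.94, 3.57, 2.21, 3.79 and 4.105 CPM, and was 12.3-fold lower (log2 fold-change -3.62 ± 0.52 SE, adjusted p = 0.000299). For both genes T2 stood far above the other libraries labelled control, and the lowest of these was still far above the highest library labelled TAA control. Myl9 was 32.3, 95.2, 36.02, 20.6 and 28.3 CPM against 10.7, 8.04, 8.39, 10.3 and 10.4 CPM, 3.85-fold lower (log2 fold-change -1.94 ± 0.40 SE, adjusted p = 0.00228). Cald1 was 259, 358, 296, 232 and 272 CPM against 160.2, 130.1, 125, 101 and 92.97 CPM, 2.35-fold lower (log2 fold-change -1.23 ± 0.16 SE, adjusted p = 0.000168). Without T2 all 4 genes were still called lower, with log2 fold-changes of -5.82 for Acta2, -3.29 for Tagln, -1.60 for Myl9 and -1.14 for Cald1 (adjusted p = 3.01e-05, 1.22e-05, 0.000128 and 0.000375).

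Among the tropomyosins of this experiment, Tpm1 measured 42.04, 73.4, 34.4, 31.7 and 34.4 CPM in the libraries labelled control and 29.6, 25.3, 25.6, 21.3 and 22.8 CPM in those labelled TAA control. The groups lay close without overlapping, and the difference was 1.65-fold (log2 fold-change -0.72 ± 0.21 SE, adjusted p = 0.0161), or -0.51 (adjusted p = 0.0043), under the fold limit, without T2. Tpm4 measured 383, 366, 286, 322 and 303 CPM against 260.5, 219, 199.8, 201 and 208 CPM, 1.52-fold lower (log2 fold-change -0.61 ± 0.10 SE, adjusted p = 0.000764). This lies at the edge of the fold limit, and the call was lost without T1, T2, T13 or T14, when the log2 fold-change was -0.58 to -0.55. Tpm2, Tpm3 and Tagln2 were not called. Tpm2 lay at 7.94 to 13.8 CPM against 9.88 to 12.0 CPM (log2 fold-change 0.11, 95% interval -0.21 to 0.42), Tpm3 at 875 to 1086 CPM against 861 to 1010.0 CPM (-0.04, 95% interval -0.22 to 0.13), and Tagln2 at 979 to 1389.6 CPM against 866 to 981 CPM (-0.23, 95% interval -0.44 to -0.01). Cnn1 had 0.0352 to 0.140 CPM in the libraries labelled control and 0 to 0.0399 CPM in those labelled TAA control.

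Stellate markers moved with these differences. Without Reln they summed to 2575 to 5881 CPM in the libraries labelled control, with T2 the highest, and to 410 to 669 CPM in those labelled TAA control, and 10 of the 13 tested were called lower in the second group, also at the adjusted p. Over all genes tested, 15.9% were called lower. Pdgfrb differed by -5.09 (adjusted p = 2.7e-05) and Col1a1 by -4.83 (adjusted p = 1.35e-05) on the log2 scale. The 7 LSEC markers summed to 18423 to 22528 CPM and 21296 to 28043 CPM, and the immediate-early genes to 9427 to 19029 CPM and 31211 to 46119 CPM. Markers of portal fibroblasts and mesothelial cells summed to 344 to 912 CPM in the libraries labelled control and 131 to 172 CPM in those labelled TAA control, and 5 of the 5 tested were called lower in the latter. Smooth muscle markers without Smtn summed to 10.6 to 28.9 CPM and 6.91 to 8.13 CPM, and with Smtn to 229 to 382 CPM and 580 to 745 CPM. The part of these cell types in the difference of Acta2, Tagln, Myl9 and the other called members was not tested.

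**Figure D4:**
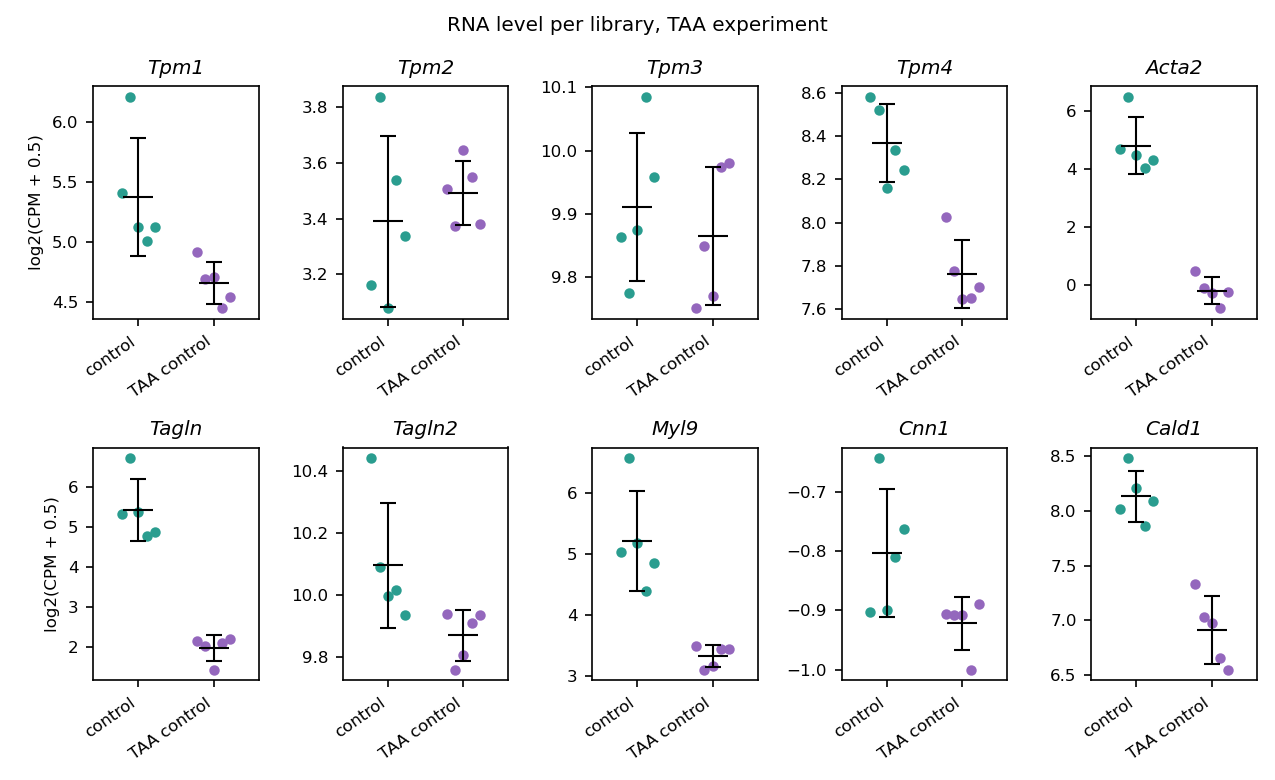
Level of each of the 10 genes in the 10 libraries of the TAA experiment, as log2 of CPM plus 0.5 on the y axis of each panel (each with its own scale), by label on the x axis (5 libraries each), with points for libraries and lines for the mean ± SD. Acta2, Tagln, Myl9, Cald1, Tpm4 and Tpm1 do not overlap between the labels, while Tpm2 and Tpm3 do.

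The other genes of the contractile apparatus were counted from lists of actins, myosins, regulators of the myosin light chain, actin-binding proteins and the serum response factor programme, and up to 3 with the highest mean level of each list are named. Of all genes tested, 74.1% were called at 2 weeks, 71.2% at 6 weeks and 54.5% in cirrhosis, and the counts of each list stand beside these shares. Of the 3 actins tested, 1 fell at 2 weeks and at 6 weeks (in both the enteric smooth-muscle actin Actg2, which is also on the list of smooth muscle markers), and 2 fell in cirrhosis. Those 2 were the cytoplasmic actins Actb (log2 fold-change -0.999 ± 0.18 (SE), adjusted p = 0.00071) and Actg1 (-0.72 ± 0.22, adjusted p = 0.0133), which were not called at 2 weeks (-0.13 and 0.46) or 6 weeks (-0.47 and 0.26). Actg2 was low throughout, at a mean of 1.83 CPM in healthy LSECs. The cytoplasmic actins and Acta2 thus moved in opposite directions in cirrhosis.

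Of 7 myosin genes, 2 rose and 3 fell at 2 weeks, 2 rose and 2 fell at 6 weeks, and 2 rose and 3 fell in cirrhosis. Over all genes tested, 74.1% were called at 2 weeks, 71.2% at 6 weeks and 54.5% in cirrhosis. With 7 genes, no difference from these shares is read. The essential light chain Myl6 fell at all 3 stages (-1.25, -1.57 and -0.92 on the log2 scale, adjusted p = 2.38e-05, 5.64e-06 and 0.000985), and so did the non-muscle regulatory light chain Myl12b (-2.29, -2.11 and -0.88, adjusted p = 2.52e-07, 3.58e-07 and 0.00123). Its paralog Myl12a rose at 2 weeks (0.65, adjusted p = 0.000876) and was not called at 6 weeks (0.13) or in cirrhosis (-0.33). At 6 weeks the log2 fold-changes of the regulatory light chains were thus -2.61 for Myl9 and -2.11 for Myl12b, beside 0.13 for Myl12a.

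Of 8 regulators of light-chain phosphorylation, 4 rose and 3 fell at 2 weeks and at 6 weeks, and 4 rose in cirrhosis. The myosin phosphatase gene Ppp1cb rose at 2 and 6 weeks (1.59 and 1.45, adjusted p = 0.000812 and 0.0016), and in cirrhosis its log2 fold-change was 0.58 (adjusted p = 0.117).

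Of the actin-binding proteins, 7 of 15 rose and 6 fell at 2 weeks, 7 of 15 rose and 5 fell at 6 weeks, and 6 of 17 rose and 5 fell in cirrhosis. Over all genes tested, 35.8% rose and 38.3% fell at 2 weeks, 35.8% rose and 35.4% fell at 6 weeks, and 28.8% rose and 25.7% fell in cirrhosis. Filamin A (Flna) rose at 2 weeks (1.13, adjusted p = 0.000262) and 6 weeks (0.61, adjusted p = 0.0165) and fell in cirrhosis (-0.74, adjusted p = 0.00791), and talin 1 (Tln1) fell at all 3 stages (-0.73, -0.82 and -1.07, adjusted p = 0.00161, 0.000425 and 0.000212). Alpha-actinin 4 (Actn4) was not called at any of them (0.15, 0.08 and -0.10). In the serum response factor programme, 2 of 5 rose and 2 fell at 2 and at 6 weeks, and 1 rose and 3 fell in cirrhosis. Srf itself had log2 fold-changes of 0.22 and 0.21 that were not called and fell in cirrhosis (-0.90, adjusted p = 0.00345). The 2 matricellular targets parted: Ctgf rose at 2 and 6 weeks (3.60 and 3.58, adjusted p = 1.17e-07 and 5.8e-08) and was -0.16 in cirrhosis, whereas Cyr61 was called lower at all 3 stages (-0.59, -0.82 and -1.21, adjusted p = 0.0532, 0.00533 and 0.000846). Its call at 2 weeks lay at the edge of the fold limit and was made at the unadjusted p-value only. The 2-week libraries, at 331 to 908 CPM, overlapped with the healthy ones, at 582 to 972 CPM.

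In the TAA experiment, the libraries labelled TAA control had 1 of 3 actins lower, 2 of 8 light-chain regulators lower, 1 of 17 actin-binding proteins higher and 10 lower, and 1 of 5 genes of the serum response factor programme higher and 1 lower. Among the 7 myosin genes, the named Myl6, Myl12a and Myl12b were not called, with log2 fold-changes of 0.18, -0.06 and 0.16. Flna was lower (-0.83, adjusted p = 0.000939), while Cyr61 was higher (1.76, adjusted p = 0.000212). Of all genes tested in this comparison, 13.5% were called higher and 15.9% lower.

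The genes whose course over the 22 CCl4 libraries was closest to that of Tpm1, by the root mean square difference of centred log2 CPM among 8520 genes, included Irak3 (0.474) and Fam129a (0.49). Irak3, which encodes a kinase-like regulator of Toll-like receptor signalling, had mean levels of 11.2, 8.36, 15.6 and 20.2 CPM in healthy, 2-week, 6-week and cirrhotic LSECs. For Acta2 the closest were Cryab (0.759), Col12a1 (0.771) and Sulf1 (0.812). Cryab, which encodes a small heat-shock protein, had means of 2.72, 4.16, 27.6 and 18.3 CPM, Col12a1, a fibril-associated collagen gene, 2.13, 8.88, 42.7 and 26.2 CPM, and Sulf1, a heparan sulfatase gene, 2.11, 7.56, 31.9 and 15.2 CPM. All 3 had their highest mean at 6 weeks, as Acta2 did, which follows from their being picked for closeness to it. These distances describe the 22 libraries, which share their groups.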

How the data were processed

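RNA of isolated LSECs was sequenced (stranded mRNA libraries) in 32 samples (CCl4 model, 22; TAA experiment, 10), 1 file each. The values are expected counts per gene that the authors estimated with RSEM after trimming with Trim Galore and alignment with STAR, and deposited without normalization (build Rnor_6.0, per the labels). In each library 10.3 to 12.4% of the genes had an expected count that was not whole, since RSEM divides reads between loci, and the deposited expected counts were rounded. Levels of genes of different length were not compared.

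Groups were taken from the labels. Each comparison was fitted in limma-voom 3.58.1 (R 4.3.3) on its 2 groups, with the study's call rule, after edgeR 4.0.16 TMM scaling and its low-count filter (13931 to 15186 genes tested). Genes were called at p under 0.05 and a fold-change above 1.5, and Benjamini-Hochberg p-values were computed over all genes tested. CPM values were scaled over the libraries of each experiment separately, and 0.5 CPM was added before taking log2. Depth was 25646531 to 46464289 counts per library. The p-values set the difference between 2 groups against the spread between libraries within them. Each library was taken as 1 rat, which is not settled for T14 and T15, the pair most alike.

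The 10 members are all named. Of each list of other contractile genes up to 3 with the highest mean CPM are named, and for Tpm1 and Acta2 up to 3 genes with the smallest root mean square difference of centred log2 CPM, among genes with a mean log2 CPM of at least 3. A few results that these rules would name are not reported here. Members and lists were chosen with earlier results of these data known. Stellate markers without Reln, smooth muscle markers without Smtn, and T14 and T15 added up as 1 library were chosen after seeing the data. The alternatives were edgeR's quasi-likelihood test, DESeq2 1.42.0, other scaling factors, no filter, other call rules, library weights, 1 fit over the 4 CCl4 groups, a replicate block and leaving out each library. The fitting code was tested on simulated data in which few genes changed, so that test does not cover the scaling where most genes were called. Promoter windows came from RefSeq, build GRCr8, which differs from the build of the counts.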

Additional observations from a re-analysis of the deposited data

Results flagged for a closer look

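Of the 60 combinations of a member and a group (5 or 6 libraries each) 10 held a library that stood apart from the others by Dixon's test, where chance alone gives about 3. Replicate 17 at 6 weeks was the lowest for Acta2 (2.57 CPM against 20.4 to 42.6 CPM, log2 1.62), Tagln (11.2 CPM against 53.0 to 98.0 CPM, log2 3.54) and Tagln2 (215 CPM against 287 to 313 CPM, log2 7.75). It also had the lowest Myl9 (0.787 CPM) and the lowest stellate marker sum without Reln (58.4 CPM) of its group. In the TAA experiment, T2 was the highest of the control libraries for Acta2 (89.1 CPM against 15.8 to 25.5 CPM, log2 6.49). T13 was the lowest of the TAA control libraries for Tagln (2.21 CPM against 3.57 to 4.10 CPM, log2 1.44). For Cnn1, T14 had no read (log2 -1) where the other TAA control libraries had 1 count each (0.0329 to 0.0399 CPM). That flag thus rests on 1 count. T2 also had the highest stellate marker sum without Reln (5881 CPM).

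In the CCl4 model 4 further libraries stood apart for 1 member each. Tpm1 was 21.8 CPM (log2 4.48) in replicate 4 at 2 weeks against 9.29 to 11.1 CPM, Tpm4 was 326 CPM (log2 8.35) in cirrhotic replicate 6 against 226 to 256 CPM, Myl9 was 10.4 CPM (log2 3.44) in healthy replicate 4 against 16.3 to 19.6 CPM, and Cald1 was 171 CPM (log2 7.42) in healthy replicate 6 against 42.4 to 56.3 CPM.

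Tpm1 and Myl9 differed from healthy LSECs in opposite directions at different stages, and the direct comparison of those stages was tested in limma-voom. Tpm1 was lower at 2 weeks and higher later, and the stages differed by 1.66 (6 weeks minus 2 weeks, adjusted p = 0.00627) and 1.48 (cirrhosis minus 2 weeks, adjusted p = 6.32e-06) on the log2 scale. Myl9 was lower at 2 and 6 weeks and higher in cirrhosis, and cirrhosis differed by 4.92 from 2 weeks (adjusted p = 3.81e-06) and by 3.55 from 6 weeks (adjusted p = 5.48e-05).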

How the results depend on the processing

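No member reversed a called direction under any alternative or left-out library. Of the alternatives for single members, 639 left the call or its absence as it was, 7 lost a call and 11 gained one. Of the fits without 1 library, 676 left it as it was, 6 lost a call and 2 gained one. A change of sign where neither fit was called counts as left as it was, as for Acta2 and Tagln at 2 weeks with library weights. From 2 to 6 weeks, 3 members were called with the adjusted p and 8 without a fold limit (6 higher and 2 lower), instead of 5, and over all genes 4968 were called without a fold limit (2770 higher and 2198 lower) and 3358 without a low-count filter, instead of 2189. In the TAA experiment 8142 genes were called without a fold limit, instead of 4228. With library size alone the balance of genes called turned at 2 weeks, to 6200 higher and 4491 lower (5128 and 5483 with TMM), and between 6 weeks and cirrhosis, to 4940 and 5053 (5240 and 4515), and it shifted to 6311 and 4085 at 6 weeks (5206 and 5145) and 5921 and 2393 in cirrhosis (4256 and 3802).

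Leaving out 1 library gave 7 members called at 2 weeks in every fit, 9 at 6 weeks, 7 to 8 in cirrhosis, 5 to 6 between 2 and 6 weeks, 6 to 7 between 6 weeks and cirrhosis, 8 between 2 weeks and cirrhosis, and 4 to 6 in the TAA experiment, the fewest without T2. With T14 and T15 added up, 5 were called there, since Tpm4 came to -0.58. Acta2 was called lower in cirrhosis than at 6 weeks by edgeR (-1.73, adjusted p = 0.00958), DESeq2 (-1.71, adjusted p = 0.000948), library weights (-1.83, adjusted p = 0.0412) and 1 fit over 4 groups (-1.32, adjusted p = 0.0412). With library weights, Acta2 and Tagln at 2 weeks were -0.01 and -0.14, still not called. The causes were not tested.

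Replicate numbers are shared by healthy, 2-week and cirrhotic libraries, but only 3 of 6, 2 of 4 and 1 of 4 same-numbered pairs correlated above 0.1, so the numbers were not taken as a pairing. With a replicate block 8 members were called in cirrhosis, 7 at 2 weeks and 8 between these, as without it, and 7948, 10978 and 10091 genes, and the adjusted p of Tpm1 at 2 weeks was 0.0598. Cnn1 was tested only without the low-count filter, which raised the members called from 5 to 6 between 2 and 6 weeks, from 8 to 9 between 2 weeks and cirrhosis, and from 6 to 7 in the TAA experiment.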

Other observations

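Tropomodulins cap the slow-growing end of actin filaments and bind tropomyosin there. They are on the list of actin-binding proteins, and Tmod3 and Tmod1 were singled out after their values were seen. Tmod2, also on that list, is not described here. Over all genes tested, 35.8% were called higher at 2 weeks, 35.8% at 6 weeks and 28.8% in cirrhosis, and 15.9% were called lower in the TAA experiment. Tmod3 had mean levels of 43.1 CPM in healthy, 243 CPM in 2-week, 219 CPM in 6-week and 106 CPM in cirrhotic LSECs, and was called higher at all 3 stages, by 2.67 ± 0.30, 2.56 ± 0.30 and 1.44 ± 0.28 (SE) on the log2 scale (limma-voom, adjusted p = 6.48e-06, 1.07e-05 and 0.00111). Tmod1 had means of 2.02, 7.35, 9.45 and 2.72 CPM, and was called higher at 2 weeks (1.88) and 6 weeks (2.31) but not in cirrhosis (0.43). In the TAA experiment Tmod3 was lower in the libraries labelled TAA control than in those labelled control, with a difference of -0.73 ± 0.07 (SE, limma-voom adjusted p = 4.56e-05) on the log2 scale.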
